A study of Mus musculus with 4 samples.

Results

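Bone morphogenetic proteins (BMPs) are secreted ligands that bind paired receptors and signal through SMAD proteins inside the cell, and the pathway is held in check at several points. Secreted antagonists bind the ligands outside the cell, while a second set of inhibitors is switched on by the signal itself and acts back on it. In the developing tooth, BMP signals pass in both directions between the dental epithelium, which gives rise to the enamel-forming ameloblasts, and the dental mesenchyme, which gives rise to the dental papilla and the dentin-forming odontoblasts. The 9 genes described here were picked by symbol from the 32285 genes of the count matrices. Sostdc1, Nog, Grem1, Chrdl1 and Bmper encode secreted antagonists or modulators of BMP ligands. Bambi encodes a pseudoreceptor without a kinase domain, Smad6 and Smad7 encode the inhibitory SMADs, and Id1 encodes an inhibitor of basic helix-loop-helix factors that is a direct transcriptional target of BMP signaling and is widely used as a readout of it. All 9 were detected, with between 1237 (Grem1) and 59306 (Sostdc1) molecules over the kept cells.

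The data are single-cell RNA sequencing counts from molar tooth organs of wild-type C57BL/6J mice, labelled WTB6, with no treatment or transgene in any group. There were 4 libraries, 1 for each combination of jaw (maxillary or mandibular molar) and stage (embryonic, E15.5, or postnatal day 1, P1). The age tag of the embryonic samples reads E15 and their protocol E15.5, and the protocol of the postnatal samples reads P0/P1. Tooth organs were pooled within each sample, so 1 library stood for each stage and jaw and no test was run. The labels give n = 6 without saying what is counted, and the paper's methods give 6 pooled tooth organs per sample. Of 10885, 7947, 18707 and 19401 deposited barcodes (E15.5 maxillary, E15.5 mandibular, P1 maxillary and P1 mandibular, the order used throughout), 8395, 6059, 13760 and 8158 cells were kept, with median depths of 9888, 11595, 3950.5 and 11016 unique molecular identifiers (UMIs, each standing for 1 captured transcript). Levels are UMIs of a gene scaled to 1e6 UMIs of its cell class (CPM). Their 95% exact Poisson intervals are limited to counting error and hold nothing of the spread between animals.

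The P1 libraries were not independent of each other. They shared 7131 barcodes, 38.1% of the maxillary and 36.8% of the mandibular barcodes, whereas the other 5 pairs of libraries shared between 28 and 70. The median depth of the shared barcodes was 12088 UMIs on the maxillary and 2870 UMIs on the mandibular side. Shared barcodes were kept in the maxillary library and left out of the mandibular one, where 6690 barcodes that passed the UMI minimum were dropped. In the P1 maxillary library the shared barcodes made up 98.8% of the papilla-like and 97.5% of the ameloblast-like cells, 71.6% of the epithelium-like cells and 4136 of the 8271 mesenchyme-like cells, but 0.337% of the gland or nasal epithelium-like and 0.322% of the neuron-like cells. Their median depth was 12233 UMIs, against 2530 in the 7935 kept cells that were not shared. The main P1 maxillary levels of the whole epithelium and mesenchyme are given with and without the shared barcodes below, except those of Grem1, Chrdl1 and Id1 in the epithelium.

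The labels were checked against genes of jaw identity and of mature tooth cells. Hand2, a transcription factor gene of the mandibular arch, stood at 21.8 CPM in mandibular and 1.18 CPM in maxillary mesenchyme-like cells at E15.5, and at 8.86 and 0.0594 CPM at P1. Pou3f3, a maxillary gene, stood at 55.8 CPM in maxillary and 1.10 CPM in mandibular papilla-like cells at E15.5, and at 26.1 and 3.33 CPM at P1. Hand2 and Pou3f3 sided with the labelled jaw in these cells at both stages. Dlx5 and Dlx6, further genes of the mandibular arch, did not separate the jaws at P1, with 139 and 16.997 CPM in maxillary and 116 and 21.8 CPM in mandibular mesenchyme-like cells and 208 against 216 CPM of Dlx5 in papilla-like cells. In the P1 maxillary mesenchyme Dlx5 stood at 166 CPM in the shared barcodes and at 14.8 CPM in the others, while Hand2 stood at 0.0723 CPM (4 UMIs) and 0, and Pou3f3 at 24.7 and 24.3 CPM. Amelx, the gene of the enamel matrix protein amelogenin, reached 62605 CPM in ameloblast-like cells of the P1 mandibular library and 14203 CPM in those of the P1 maxillary library. A cluster that met the odontoblast criteria, with Dspp at 1233 CPM, was found in the P1 mandibular library. The E15.5 mandibular library held 100 epithelium-like cells in 1 cluster led by Krt13 and Lgals7, against 630 in the E15.5 maxillary library, so the mandibular epithelium at E15.5 rests on few cells. Those 100 cells held 604 UMIs of Amelx (245 CPM) and 14 of Dspp (5.68 CPM), against 2 and 0 UMIs in the maxillary epithelium of that stage. Ambn, another enamel matrix gene, stood at 91.7 CPM in the E15.5 mandibular and 2.91 CPM in the maxillary papilla-like cells. The papilla-like cells at E15.5 differed in kind too: the maxillary ones were 1 cluster of 262 cells led by Hist1h1b, Cenpf, Wif1 and Top2a, among them genes of dividing cells, and the mandibular ones 1 cluster of 76 cells led by Col8a1, Grm7 and Plppr1. The part of this make-up in the E15.5 values was not tested.

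The genome annotation (GENCODE vM21, mm10) places the genes on separate loci, and none overlaps another annotated gene. Nog (chr11:89300638-89302332, minus strand) and Id1 (chr2:152736251-152737410, plus strand) are short genes of 1695 and 1160 bases. Sostdc1 spans chr12:36314139-36318452 (plus strand) and Grem1 chr2:113746164-113758646 (minus strand). Bmper spans 262125 bases (chr9:23223076-23485200, plus strand), of which 1.84% are exonic, Chrdl1 spans 108589 bases (chrX:143285674-143394262, minus strand) and Smad6 68984 bases (chr9:63953076-64022059, minus strand). Reads inside introns, where they were counted, add most to such long genes, so levels are compared for 1 gene across cells and not between genes.

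Promoters of 3 of the 9 genes were matched in the RefSeq table (GRCm38.p6, the same assembly as mm10, 250 bases before to 50 after the start). They are shown because SMAD complexes bind short, known DNA motifs and these genes belong to a pathway that ends in SMADs. Capitals mark exact matches, searched on both strands, to any of 3 motifs. The SMAD palindrome is GTCTAGAC, which reads alike on both strands. The GC-rich SMAD motif, which also reads alike on both strands, is GGCGCC. The SMAD box is CAGAC, and on the opposite strand it is read as GTCTG. The Smad6 promoter is given from 250 bases before the start to the end of its palindrome, and the Grem1 promoter for the 250 bases before the start.
Smad6, chr9:64022056-64022309, minus strand, 5′ to 3′: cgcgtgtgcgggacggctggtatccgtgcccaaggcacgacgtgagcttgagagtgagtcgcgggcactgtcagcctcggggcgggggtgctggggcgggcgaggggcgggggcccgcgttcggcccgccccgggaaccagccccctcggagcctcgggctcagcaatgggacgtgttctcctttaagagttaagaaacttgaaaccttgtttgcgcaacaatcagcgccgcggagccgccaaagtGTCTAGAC
Grem1, chr2:113758649-113758898, minus strand, 5′ to 3′: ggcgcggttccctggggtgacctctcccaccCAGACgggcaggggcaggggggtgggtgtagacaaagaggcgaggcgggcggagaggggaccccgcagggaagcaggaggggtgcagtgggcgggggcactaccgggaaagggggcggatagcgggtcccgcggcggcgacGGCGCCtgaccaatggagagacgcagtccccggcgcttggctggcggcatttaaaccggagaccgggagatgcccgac

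The full palindrome in Smad6 lies across the annotated start, from 4 bases before it to 4 bases after. That motif occurred in 70 of the 32851 promoters of the table, or 0.213%. In Grem1 the GC-rich motif lies 78 to 73 bases before the start and a SMAD box 219 to 215 bases before it, with a second SMAD box 18 to 22 bases after the start, outside the stretch printed. These motifs occurred in 11.9% and 49.6% of all promoters. The Bmper promoter held none of the 3 motifs. The matches did not overlap one another. Over the whole windows of 300 bases the GC content was 66.3% for Smad6, 70.7% for Grem1 and 72.7% for Bmper, against a mean of 53.8% over all promoters of the table. A match describes the letters of the sequence and is not a measured binding site.

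Cells were grouped within each library without using the 9 genes or 59 other BMP pathway genes, and groups are called "-like" after their marker genes. The map of levels shows the genes over all 54 classes with at least 50 cells. The secreted antagonists Grem1, Chrdl1 and Bmper were found almost wholly in mesenchymal classes, Sostdc1 in mesenchyme, epithelium and glia, and the feedback genes in most classes. Bambi, Smad6 and Smad7 had their highest levels in P1 tooth cells, and Id1 in gland or nasal epithelium-like cells.

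**Figure D1:**
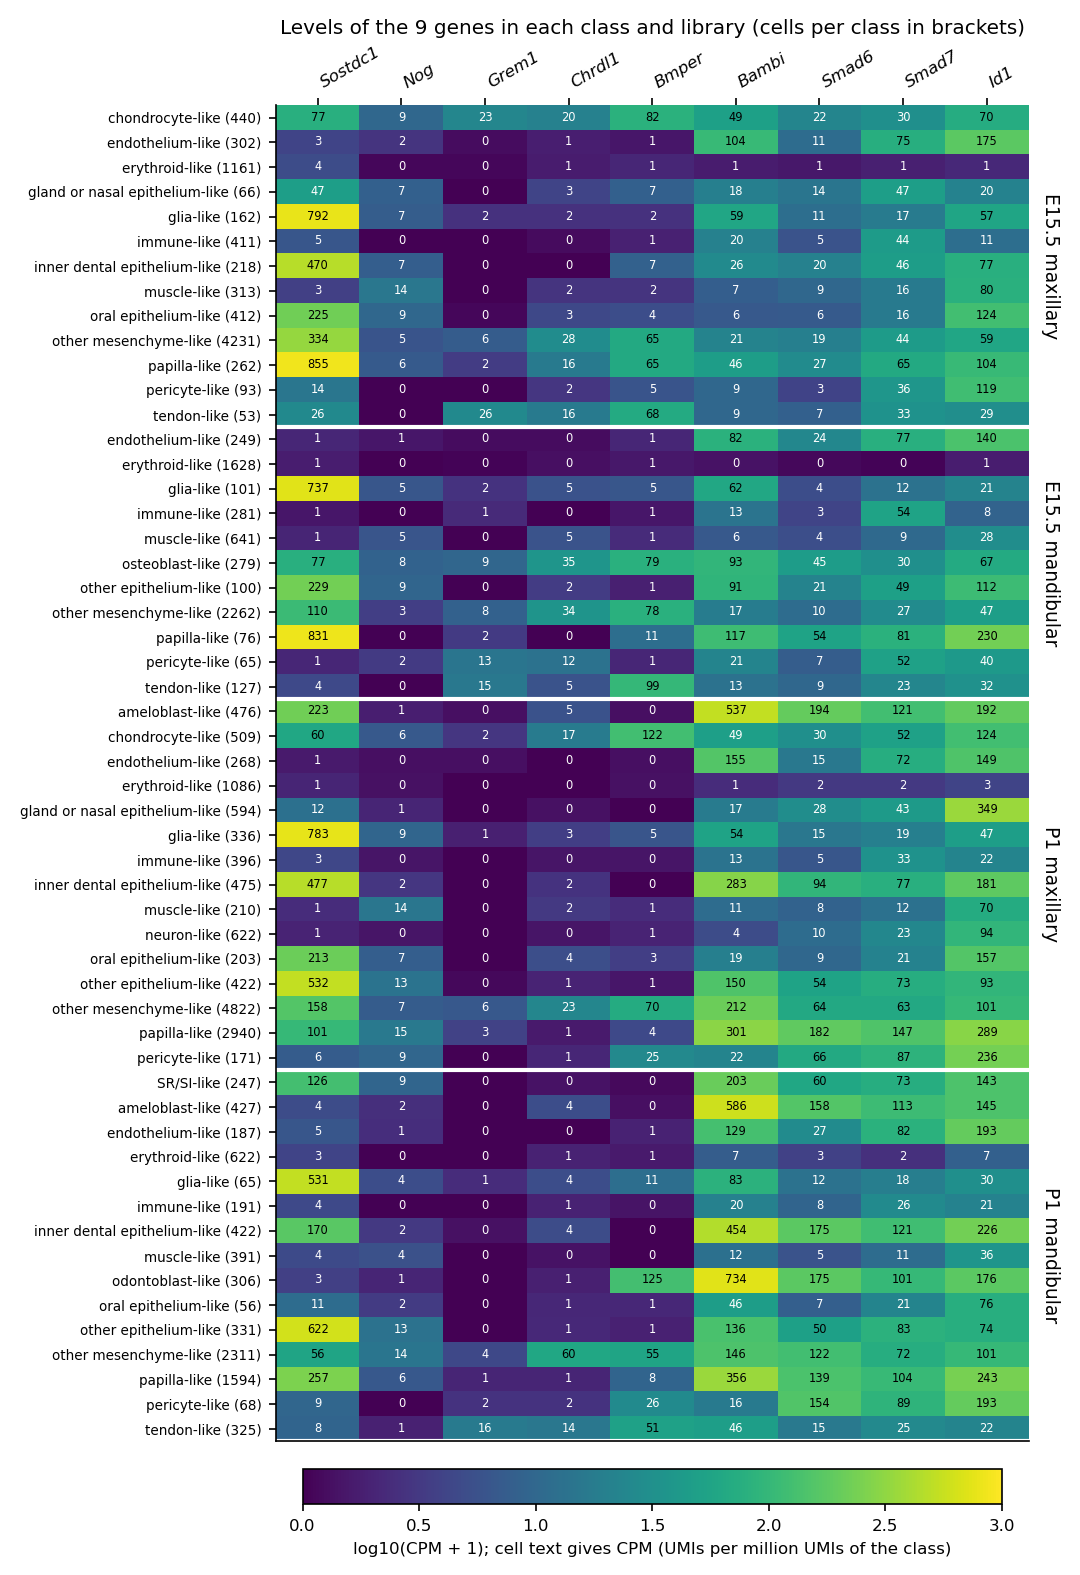
Level of each of the 9 genes (columns) in every cell class of at least 50 cells (rows, grouped by library), coloured by log10(CPM + 1) with the CPM printed in each field. Sostdc1 was highest in papilla-like cells at E15.5 and stood at 531 to 792 CPM in glia-like cells of both stages, whereas Bambi peaked in odontoblast-like cells of the P1 mandibular library at 734 CPM.

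Sostdc1, also called ectodin or Wise, blocks both BMP and Wnt signals and is known in the tooth for limiting cusp and tooth number. Its level was 298, 229, 375 and 225 CPM in the epithelium-like and 345, 117, 123 and 123 CPM in the mesenchyme-like cells, the P1 maxillary levels being 292 and 171 CPM without the shared barcodes. In the papilla-like cells it was 855 (95% interval 825 to 885) and 831 (772 to 892) CPM at E15.5, and 101 (98.3 to 105) and 257 (250 to 264) CPM at P1. The P1 levels of the papilla were thus lower than both E15.5 levels in either jaw. The log2 ratio of P1 to E15.5 was -3.07 (-3.14 to -3.01) in the maxillary and -1.69 (-1.80 to -1.58) in the mandibular papilla. Without the shared barcodes, which left 36 papilla-like cells, the P1 maxillary level was 396 CPM and the ratio -1.11 (-1.49 to -0.76).

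Within the P1 mandibular papilla Sostdc1 was uneven. A cluster of 435 cells led by Cntn6, Gabrg3 and Unc5d stood at 924 CPM, while the other 3 papilla-like clusters ranged from 63.8 to 107 CPM. The odontoblast-like cells of the same library stood at 2.73 CPM (1.56 to 4.43), which lay inside the level of free RNA, taken from immune-like and erythroid-like cells (3.35 CPM, 1.99 to 5.30). The P1 maxillary library held a cluster of 405 cells led by Smpd3 and Bglap that was kept out of the odontoblast class by the naming threshold, and Sostdc1 stood there at 9.50 CPM. Sostdc1 was therefore high in 1 papilla-like cluster and low in the clusters led by Bglap and Smpd3.

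In the P1 epithelium the highest Sostdc1 levels were in a cluster with Odam among its leading genes in each jaw, at 559 CPM (540 to 579, 393 cells) in the maxillary and 670 CPM (648 to 693, 307 cells) in the mandibular library. Odam encodes a protein of maturing enamel and of the epithelium that attaches to it. Inner dental epithelium-like cells stood at 470 CPM in the E15.5 maxillary library, 477 CPM in the P1 maxillary library and 170 CPM in the P1 mandibular library, and at 231 CPM in the P1 maxillary library without the shared barcodes. The ameloblast-like cells differed most between the jaws, with 223 CPM (212 to 235) in the maxillary and 4.02 CPM (2.57 to 5.98) in the mandibular library, a log2 ratio of 5.80 (5.22 to 6.44). Those cells differed in other genes as well: Amelx, Mmp20, which encodes the enamel protease, and Dspp stood at 14203, 362 and 964 CPM in the maxillary and 62605, 1195 and 2452 CPM in the mandibular ameloblast-like cells, and of the 476 maxillary cells 464 carried shared barcodes. Of all 12337 genes compared between these cells, 13.6% were at least 2-fold higher and 3.26% at least 2-fold lower on the maxillary side, and their median log2 ratio was 0.23. The part of cell maturity and of the shared barcodes in the Sostdc1 difference was not tested.

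Sostdc1 was also high in glia-like cells. These cells stood at 792, 737, 783 and 531 CPM in the 4 libraries. Among mesenchymal clusters not named papilla-like, the top ones at E15.5 were led by C1qtnf3 and Msx1 in the maxillary library (1214 CPM, 451 cells) and by Sostdc1 itself and Lum in the mandibular library (999 CPM, 206 cells). The maxillary one shared C1qtnf3, Sostdc1 and Lrrtm4 with the leading genes of the papilla-like cluster of that library. Its name therefore does not place it outside the papilla. At P1 the top clusters not named papilla-like were led by Ibsp, Runx2 and Bmp3, genes of bone-forming cells, with 781 CPM (437 cells) in the maxillary and 568 CPM (72 cells) in the mandibular library. Endothelium-like cells never exceeded 5.29 CPM. In the E15.5 maxillary library the papilla-like and glia-like intervals overlapped at the top of the order, and the same 2 classes led the E15.5 mandibular library with overlapping intervals.

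Nog encodes noggin, a ligand trap that prevents BMPs from reaching their receptors. It was sparse throughout, at 8.38, 8.52, 5.69 and 5.92 CPM in epithelium-like cells and 5.42, 3.11, 11.7 and 8.83 CPM in mesenchyme-like cells. The mesenchyme level was higher at P1, by 2.16-fold in the maxillary and 2.84-fold in the mandibular jaw, while the epithelium level was lower by 1.47-fold and 1.44-fold, the latter with an interval that spanned 0 on the log2 scale. The P1 maxillary mesenchyme stood at 4.84 CPM without the shared barcodes, and its log2 ratio to E15.5 turned from 1.11 to -0.16 (-0.59 to 0.25). The P1 maxillary epithelium then stood at 7.85 CPM (3.92 to 14.0, 11 UMIs), close to the 8.38 CPM of E15.5. The highest P1 clusters were a mandibular cluster led by Ibsp and Igfbp5 (32.2 CPM, 72 cells), a mandibular cluster led by Csmd1 and Plppr1 (31.2 CPM, 628 cells) and a maxillary papilla-like cluster led by Grik1 and Cntn6 (22.1 CPM, 772 cells). The cluster led by Csmd1 fell below the naming threshold for papilla. Outside the tooth, muscle-like cells stood at 14.3, 5.17, 14.1 and 4.49 CPM.

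Grem1 encodes gremlin, a cystine-knot antagonist that binds BMP ligands directly. It was detected in epithelium-like cells by 1, 0, 3 and 2 UMIs in the 4 libraries, whereas mesenchyme-like cells stood at 7.77, 7.93, 3.98 and 2.98 CPM. The P1 maxillary mesenchyme stood at 9.27 CPM (7.62 to 11.2) when the shared barcodes were left out, and its log2 ratio to E15.5 was then 0.25 in place of -0.96. The count of 0 allows up to 1.22 CPM (3 counts) in the E15.5 mandibular epithelium. High levels were found in tendon-like cells, at 25.6, 15.05 and 16.3 CPM in the 3 libraries that held them, in chondrocyte-like cells of the E15.5 maxillary library (22.9 CPM), in an E15.5 mandibular cluster led by Aspn, Sfrp2 and Igf1 (24.2 CPM, 262 cells), and at P1 in 2 mesenchymal clusters led by Aspn, Nrg3 and Sfrp2 in the maxillary (34.7 CPM) and by Sfrp2 and Col8a1 in the mandibular library (33.6 CPM). In the tooth at P1 Grem1 stood at 2.91 CPM (2.40 to 3.49) in maxillary and 1.03 CPM in mandibular papilla-like cells, with no UMI in mandibular ameloblast-like or odontoblast-like cells.

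Chrdl1 encodes a chordin-like protein that binds BMPs. It stood at 26.1, 32.5, 9.67 and 29.9 CPM in mesenchyme-like cells and at 2.43, 2.43, 2.82 and 2.48 CPM in epithelium-like cells. The mesenchymal level was alike in 3 of the 4 libraries and lower in the P1 maxillary library, where it stood at 20.4 CPM without the shared barcodes. The P1 mandibular UMIs were concentrated in 2 clusters of connective tissue genes, led by Dlk1 and Ebf2 (118 CPM, 631 cells) and by Aspn and Mfap5 (104 CPM, 698 cells). In the papilla-like cells the level was 16.1 CPM in the E15.5 maxillary library and 0 UMIs in the E15.5 mandibular library. The bound used for ratios, 3 UMIs, would be 3.31 CPM in the latter. At P1 the papilla-like cells stood at 0.663 and 1.03 CPM, close to the free RNA level of 0.204 and 0.932 CPM.

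Bmper encodes a chordin-related protein that can dampen or promote BMP signals depending on its level. It stood at 66.7, 77.9, 32.4 and 44.3 CPM in mesenchyme-like cells and at 5.16, 0.811, 0.564 and 0.392 CPM in epithelium-like cells, where the free RNA level was 1.00, 0.567, 0.407 and 0.559 CPM. Apart from the E15.5 maxillary library, the epithelium was thus close to the level of free RNA. Leaving out the shared barcodes gave 38.7 CPM in the P1 maxillary mesenchyme and 3.57 CPM, on 5 UMIs, in the epithelium. At E15.5 the maxillary cluster led by C1qtnf3 and Msx1, which also led for Sostdc1, held 337 CPM (321 to 355). At P1 the top clusters were of connective tissue genes, led by Dlk1 and Ebf2 in the mandibular (142 CPM, 631 cells) and by Aspn and C1qtnf3 in the maxillary library (133 CPM, 488 cells). The mandibular odontoblast-like cells stood at 125 CPM (116 to 134), the maxillary cluster led by Smpd3 and Bglap at 132 CPM (124 to 141), and chondrocyte-like cells of the maxillary library at 122 CPM (105 to 141). The papilla-like cells from the same P1 libraries stood at 3.59 and 8.28 CPM. From papilla-like to odontoblast-like cells of the P1 mandibular library Bmper thus went from 8.28 to 125 CPM, while Sostdc1 went from 257 to 2.73 CPM.

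Grem1, Chrdl1 and Bmper were lower in epithelium-like than in mesenchyme-like cells in all 4 libraries. On the log2 scale, epithelium over mesenchyme gave -6.32, at most -2.70, -4.56 and -5.09 for Grem1, -3.42, -3.74, -1.78 and -3.59 for Chrdl1, and -3.69, -6.59, -5.85 and -6.82 for Bmper. Of the 9 genes, 4, 3, 4 and 3 were at least 2-fold lower in the epithelium, where 21.2%, 17.3%, 23.4% and 22.6% of all genes compared were. At least 2-fold higher were 0, 3, 1 and 0 of the 9, against 12.2%, 14.3%, 13.1% and 12.8% of all genes. The 4 lower genes of the P1 maxillary library include Nog (-1.04), which was at 0.70 without the shared barcodes. The 1 case of a higher level at P1 was Sostdc1 in the maxillary library (1.61), which was at 0.77 without the shared barcodes, when Bambi was at 1.06. Id1 went from -0.46 to 0.83 and Smad7 from -0.39 to 0.05 in that library when they were left out. The 3 cases in the E15.5 mandibular library were Nog (1.45), Bambi (1.63) and Id1 (1.08), and they rest on the 100 epithelium-like cells there, the same that held Amelx and Dspp.

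**Figure D2:**
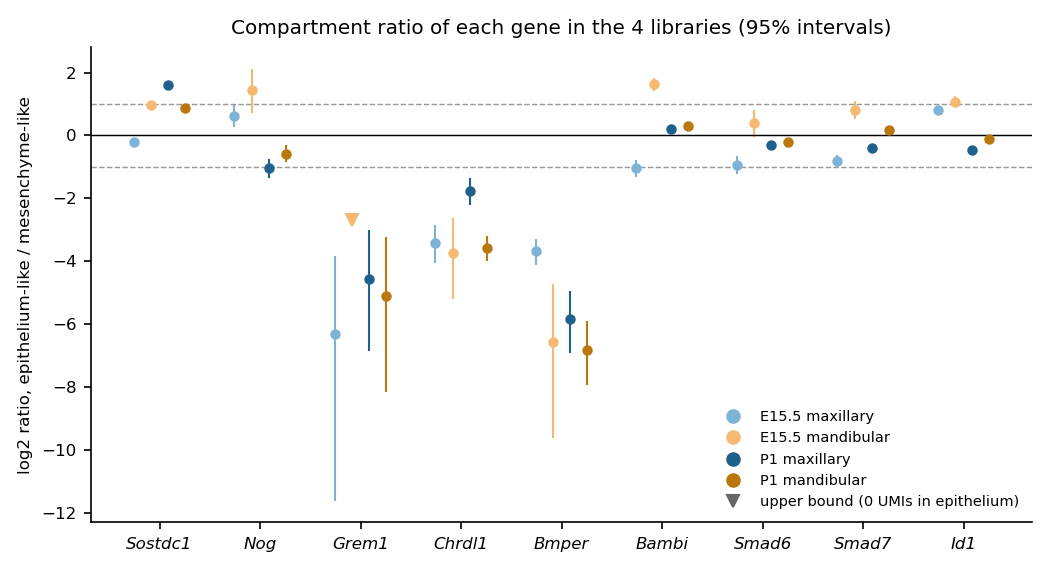
Log2 ratio of the level in epithelium-like to that in mesenchyme-like cells for each gene, with 1 point per library and bars for the 95% counting interval; a triangle marks an upper bound. Grem1, Chrdl1 and Bmper lie below -1 in every library, whereas the feedback genes lie between -1.05 and 1.63.

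Bambi was higher at P1 than at E15.5 in both compartments, though in the maxillary mesenchyme by 2-fold or more only with the shared barcodes. The protein takes the place of a type I receptor in the receptor complex and carries no signal. Epithelium-like cells stood at 11.98 (9.96 to 14.3), 90.8 (79.3 to 104), 302 (294 to 311) and 342 (334 to 349) CPM, and mesenchyme-like cells at 24.8, 29.4, 260 and 276 CPM. With the shared barcodes kept, both P1 levels were above both E15.5 levels in either compartment. The level at P1 was 25.2-fold and 3.76-fold that at E15.5 in the epithelium of the maxillary and mandibular jaw, and 10.47-fold and 9.39-fold in the mesenchyme. The P1 maxillary mesenchyme stood, without the shared barcodes, at 32.4 CPM (0.38 against E15.5 on the log2 scale). The epithelium then stood at 67.8 CPM, below the 90.8 CPM of the E15.5 mandibular epithelium. In the papilla-like cells Bambi stood at 46.3, 117, 301 and 356 CPM, a difference between stages of 6.49-fold and 3.04-fold.

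In the P1 libraries Bambi was highest in the mandibular odontoblast-like cells, a maxillary cluster led by Smpd3 and Bglap, and the ameloblast-like cells. The maxillary ameloblast-like interval (519 to 555) overlapped that of a papilla-like cluster (511 to 549). Odontoblast-like cells of the mandibular library stood at 734 CPM (712 to 756), the maxillary cluster led by Smpd3 and Bglap at 684 CPM (666 to 703), and ameloblast-like cells at 537 and 586 CPM in the 2 jaws. In the mandibular library the order was odontoblast-like, ameloblast-like, inner dental epithelium-like (454 CPM) and papilla-like (356 CPM), with no overlap between neighbouring intervals. The papilla-like clusters with Smpd3 among their leading genes stood at 529 CPM in the maxillary and at 473 and 531 CPM in the mandibular library. Oral epithelium-like cells, by contrast, stood at 18.9 and 46.1 CPM at P1. Bambi in the endothelium, known from other tissues, stood at 104, 81.8, 155 and 129 CPM, the highest of all classes in the E15.5 maxillary library.

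Smad6 encodes the inhibitory SMAD that acts mainly on BMP receptors and SMADs. It stood at 10.2, 21.1, 108 and 109 CPM in epithelium-like cells and at 19.5, 15.97, 132 and 128 CPM in mesenchyme-like cells. As with Bambi, the 2 P1 levels were close to each other and above both E15.5 levels. The maxillary P1 levels without the shared barcodes, however, were 24.97 CPM in epithelium and 30.6 CPM in mesenchyme, and the mesenchyme lay at -2.06 against the mandibular jaw on the log2 scale. The ratio of P1 to E15.5 was 10.6-fold and 5.18-fold in the epithelium, and 6.76-fold and 7.99-fold in the mesenchyme, of the maxillary and mandibular jaw. The papilla-like cells stood at 27.0, 54.1, 182 and 139 CPM, the last without the cluster led by Csmd1 and Plppr1, which fell below the naming threshold. The top cluster was the P1 mandibular cluster led by Csmd1 and Plppr1 (323 CPM, 312 to 334), followed by a P1 maxillary papilla-like cluster led by Plppr1 and Omd (279 CPM, 271 to 288). These clusters also held much of the Nog.

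Outside the tooth proper, Smad6 in pericyte-like cells, the mural cells of small vessels, was 3.02, 6.73, 66.1 and 154 CPM. The P1 to E15.5 ratio there was 21.8-fold and 22.9-fold, on 3 and 6 UMIs at E15.5. Endothelium-like cells stood at 10.6, 23.8, 14.7 and 26.9 CPM. Their stage ratios of 1.39-fold and 1.13-fold had intervals that spanned 0 on the log2 scale.

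Smad7, the inhibitory SMAD that acts on both BMP and TGF-beta receptors, had smaller stage ratios than Smad6. It stood at 24.8, 49.5, 85.7 and 95.6 CPM in epithelium-like cells, at 43.9, 28.2, 112 and 84.3 CPM in mesenchyme-like cells, and at 65.1, 80.6, 147 and 104 CPM in papilla-like cells. The P1 to E15.5 ratio in the epithelium was 3.45-fold in the maxillary and 1.93-fold in the mandibular jaw, and in the mesenchyme 2.55-fold and 2.99-fold. The P1 maxillary levels without the shared barcodes were 44.2 CPM in epithelium and 42.8 CPM in mesenchyme. Endothelium-like cells stood at 75.2, 77.5, 72.3 and 81.7 CPM with overlapping intervals. The free RNA level of Smad7 was between 11.6 and 17.3 CPM, and immune-like cells held 43.7, 53.9, 33.3 and 26.0 CPM of it.

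Id1 was present in epithelium at all times, at 110, 112, 153 and 144 CPM in epithelium-like cells. In mesenchyme-like cells it stood at 62.5, 52.9, 211 and 157 CPM, 3.38-fold and 2.96-fold higher at P1 in the maxillary and mandibular jaw, while the epithelial ratios were 1.40-fold and 1.29-fold. With the shared barcodes left out, the P1 maxillary mesenchyme stood at 85.8 CPM, below the epithelium. Papilla-like cells stood at 104, 230, 289 and 243 CPM. The stage difference in the papilla was thus found in the maxillary jaw (2.78-fold) and was 1.06-fold in the mandibular jaw, with a log2 interval from -0.12 to 0.29. The highest level was in gland or nasal epithelium-like cells of the P1 maxillary library (349 CPM), of which 2 of 594 carried shared barcodes. Endothelium-like cells, where Id1 is known as a target of BMP receptors, stood at 175, 140, 149 and 193 CPM.

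**Figure D3:**
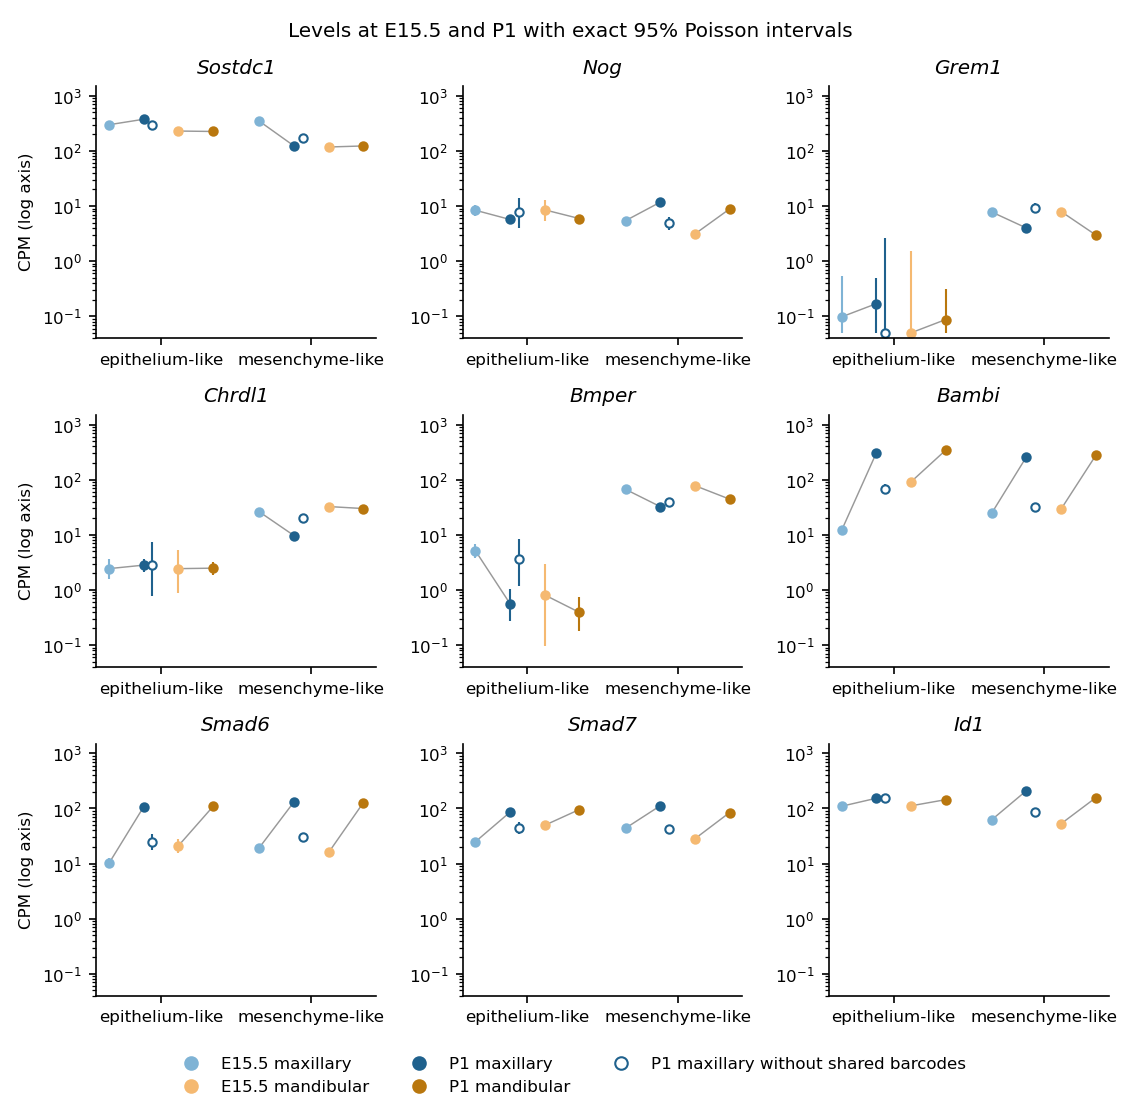
Level of each gene in CPM (log axis) at E15.5 and P1 in epithelium-like and mesenchyme-like cells, with 1 line per jaw and bars for the 95% counting interval; a level of 0 UMIs is drawn at 0.05 CPM. Open circles show the P1 maxillary level without shared barcodes, which for Bambi in the mesenchyme is 32.4 in place of 260 CPM.

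Taken by role, the 4 feedback genes and the 5 antagonists differed in how they stood at P1 against E15.5. In the mesenchyme 4 of the 4 feedback genes were at least 2-fold higher at P1 in both jaws, where 10.2% (maxillary) and 12.3% (mandibular) of all genes were, but 0 of the 4 were in the maxillary jaw without the shared barcodes. Of the 5 antagonists 1 was higher (Nog) in either jaw, and 3 in the maxillary (Sostdc1, Chrdl1 and Bmper) and 1 in the mandibular jaw (Grem1) were at least 2-fold lower, where 6.94% and 5.84% of all genes were. In the maxillary mesenchyme without the shared barcodes 1 of the 5 was lower (Sostdc1, -1.01) and 0 higher, with Nog at -0.16, Grem1 at 0.25, Chrdl1 at -0.36 and Bmper at -0.79 on the log2 scale, where 4.06% of all genes were lower and 4.05% higher. In the epithelium 3 of the 4 feedback genes were higher in the maxillary and 2 of the 4 in the mandibular jaw, against 12.8% and 11.2% of all genes. The maxillary count was 2 of the 4 without the shared barcodes, with Smad7 at 0.83. No antagonist was higher there, and Bmper was lower in the maxillary jaw (-3.20 on the log2 scale), where 10.8% of all genes were lower, against 11.6% in the mandibular jaw. That Bmper ratio was -0.53 without the shared barcodes, and then no antagonist compared was 2-fold lower in the maxillary epithelium. In the papilla-like cells 4 of the 4 were higher in the maxillary and 2 of the 4 (Bambi and Smad6) in the mandibular jaw, against 15.7% and 9.76% of all genes, and so was Nog in the maxillary jaw (1.34 on the log2 scale). Without the shared barcodes Nog stood there at 11.99 CPM on 2 UMIs at P1, against 6.09 CPM at E15.5, just short of 2-fold. Lower by at least 2-fold in the papilla were Sostdc1, Chrdl1 and Bmper in the maxillary and Sostdc1 and Grem1 in the mandibular jaw, against 11.1% and 8.59% of all genes, the Grem1 value on 2 UMIs at E15.5. The median log2 ratio of all genes compared lay between -0.03 and 0.05 in these comparisons.

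**Figure D4:**
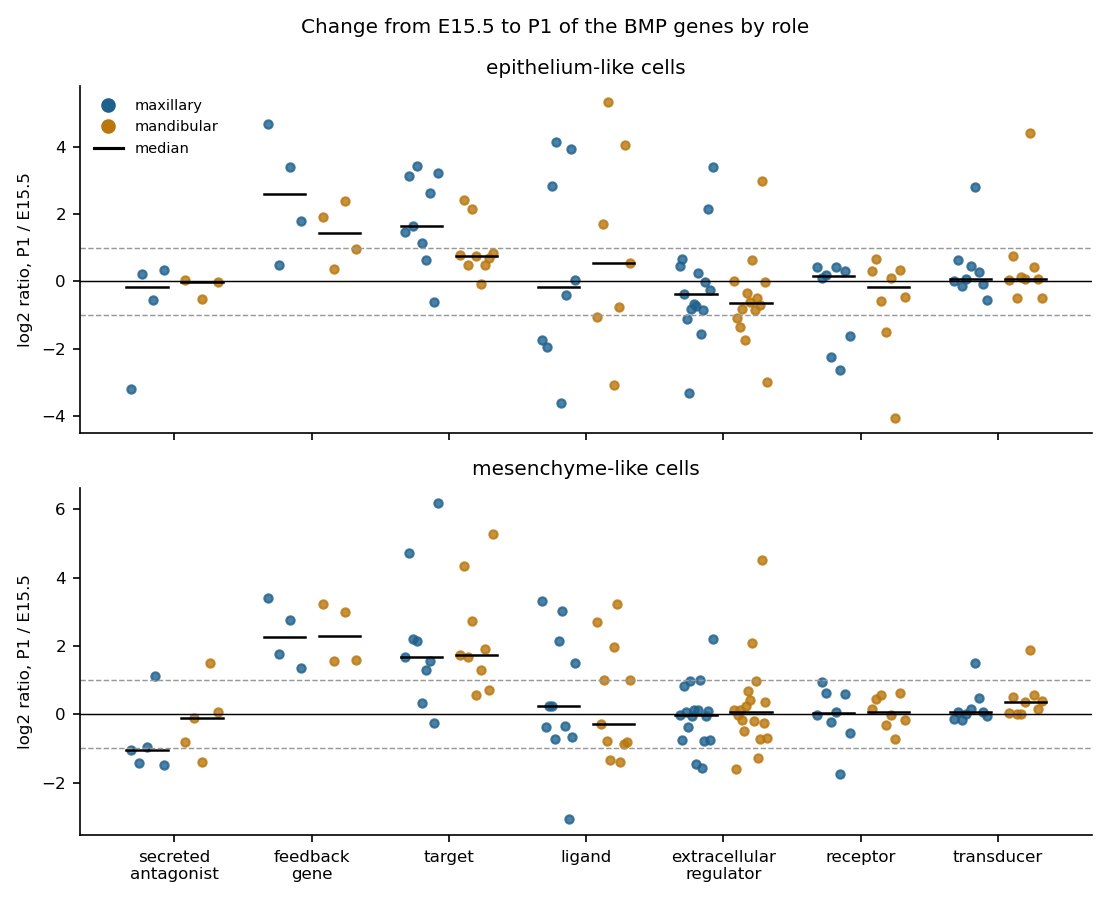
Log2 ratio of the P1 to the E15.5 level by role, in epithelium-like and mesenchyme-like cells, with 1 point per gene and jaw and a black line at the median of each list, shared barcodes kept in the P1 maxillary library. The feedback genes lie at or above 0.37 in the panels shown, while Sostdc1, Grem1, Chrdl1 and Bmper lie at or below 0.33. Nog, the remaining antagonist, was higher at P1 in the mesenchyme and lower in the epithelium of both jaws. Without the shared barcodes Smad7 was at -0.04 in the maxillary mesenchyme, where Nog was not higher at P1 either.

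The make-up of the classes moved with these ratios. Papilla-like cells made up 5.25% and 2.77% of the mesenchyme-like cells at E15.5 and 35.5% and 35.1% at P1. Ameloblast-like cells made up 30.2% and 28.8% of the epithelium-like cells at P1, and no E15.5 cluster met the criteria for them. At E15.5 the maxillary epithelium-like cells were 65.4% oral epithelium-like. Their part in the stage ratios of the whole compartments was not tested. Within a single class, inner dental epithelium-like cells of the maxillary libraries stood at 26.1 and then 283 CPM for Bambi, 19.9 and 94.3 CPM for Smad6, 45.9 and 77.3 CPM for Smad7 and 76.6 and 181 CPM for Id1. Without the shared barcodes, 245 of those P1 cells remained, at 123, 54.2, 68.3 and 203 CPM for the same 4 genes.

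Most of the maxillary stage difference in the mesenchyme rested on the shared barcodes. Without them the P1 maxillary mesenchyme-like cells stood at 32.4 CPM for Bambi, 30.6 CPM for Smad6, 42.8 CPM for Smad7 and 85.8 CPM for Id1, and the log2 ratios to E15.5 were 0.38, 0.65, -0.04 and 0.46. Of those 4135 cells, 36 were papilla-like, and these stood at 372, 132, 168 and 246 CPM for the same genes, with log2 ratios of 3.005 (2.56 to 3.43), 2.29 (1.55 to 2.96), 1.37 (0.75 to 1.93) and 1.24 (0.74 to 1.71). In the epithelium the ratios were 2.50 for Bambi, 1.29 for Smad6, 0.83 for Smad7 and 0.48 for Id1. Without the shared barcodes, then, 0 of the 4 feedback genes were at least 2-fold higher at P1 in the whole maxillary mesenchyme, where 4.05% of all genes were, while the level within its papilla-like cells was 372 against 301 CPM for Bambi and 132 against 182 CPM for Smad6. The mandibular P1 values contain no barcode that is in the maxillary library.

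Among the P1 tooth clusters the feedback genes did not run in parallel. In the maxillary library these clusters consisted largely of shared barcodes. In the mandibular library the papilla-like cluster with the highest Sostdc1 level (924 CPM) had the lowest Bambi (155 CPM) and Smad6 (59.0 CPM) levels of the 4 papilla-like clusters. The papilla-like cluster with the highest Smad6 level (227 CPM) also had the highest Smad7 (150 CPM) and Id1 (284 CPM) levels and stood at 197 CPM for Bambi. In the maxillary library the papilla-like cluster led by Grik1 and Cntn6 had the highest Smad7 (207 CPM) and Id1 (380 CPM) levels, while its Bambi level (164 CPM) was below that of 3 of the other 4 papilla-like clusters. Sostdc1 was also high in the clusters with Odam among their leading genes. Their Bambi levels were 157 and 147 CPM in the maxillary and mandibular library, against 537 and 586 CPM in ameloblast-like cells. Inner dental epithelium-like cells of the maxillary library held both genes, with 477 CPM of Sostdc1 and 283 CPM of Bambi. Over all 54 classes Pearson's r of the log2(CPM + 1) of Sostdc1 and Bambi was 0.45.

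**Figure D5:**
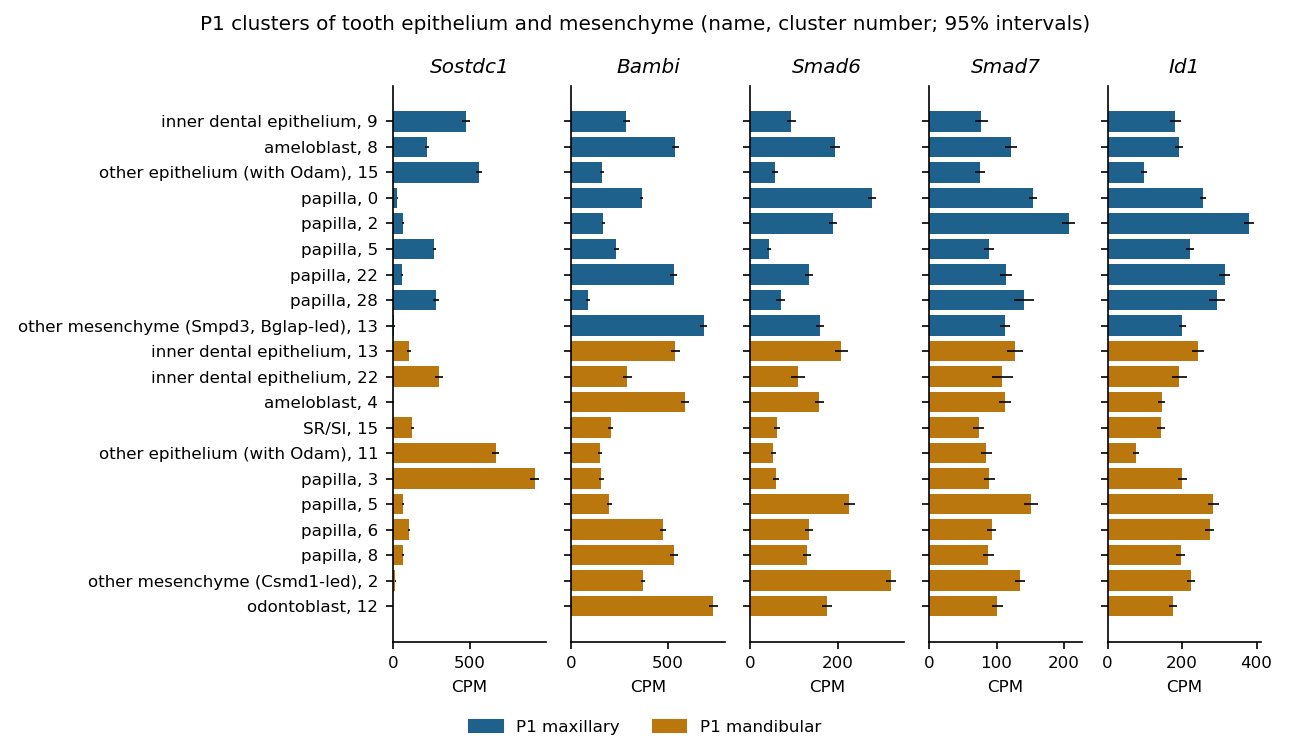
Level in CPM of Sostdc1, Bambi, Smad6, Smad7 and Id1 in the tooth clusters of the P1 libraries, with bars for the 95% counting interval. Sostdc1 is at 2.73 CPM in the mandibular odontoblast-like cluster, where Bambi is at 734 CPM.

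Between the jaws, at E15.5 the maxillary mesenchyme held 2.93-fold more Sostdc1 than the mandibular, the 1 gene of the 9 past 2-fold there, where 6.11% of all genes were at least 2-fold higher and 3.82% lower. In the epithelium Bmper was 6.36-fold higher, on 2 UMIs at the level of free RNA on the mandibular side, and Bambi and Smad6 were 7.58-fold and 2.06-fold lower in the maxillary jaw, where 4.31% of all genes were at least 2-fold higher and 5.36% at least 2-fold lower. The epithelium-like cells were oral and inner dental epithelium-like in the maxillary library and the 1 cluster led by Krt13 and Lgals7 in the mandibular library. Shh, a marker used here for inner dental epithelium, stood at 151 CPM in that mandibular cluster. In the maxillary inner dental epithelium-like cells it stood at 116 CPM. In the papilla-like cells at E15.5, of which the mandibular library held 76, Bmper was 5.89-fold and Chrdl1 at least 4.87-fold higher and Bambi, Smad6 and Id1 were 2.53-fold, 2.01-fold and 2.22-fold lower in the maxillary library, where 12.6% and 8.63% of all genes were higher and lower. At P1 none of the 9 passed 2-fold in the epithelium, where 4.30% and 3.76% of all genes were higher and lower, and Chrdl1 (3.09-fold lower in the maxillary jaw) was the 1 gene past it in the mesenchyme, where 3.8% of all genes were higher and 4.76% lower. Chrdl1 was at -0.55 on the log2 scale there without the shared barcodes, and Grem1 at 1.64. Without the shared barcodes, the P1 maxillary levels of Bambi, Smad6 and Smad7 lay below the mandibular ones, with log2 ratios of -2.33, -2.13 and -1.11 in the epithelium and -3.09, -2.06 and -0.98 in the mesenchyme. There the ratios of Id1 and Nog turned from 0.43 and 0.41 to -0.87 and -0.87, and that of Sostdc1 went to 0.48. The compartments were then unlike in make-up. On the maxillary side 36 of 4135 mesenchyme-like cells were papilla-like, and 12 of 447 epithelium-like cells were ameloblast-like. In the mandibular library these were 1594 of 4536 and 427 of 1483. The part of this make-up in the jaw ratios was not tested. In the papilla-like cells at P1 Nog and Grem1 were 2.70-fold and 2.81-fold higher and Sostdc1 and Bmper 2.53-fold and 2.30-fold lower in the maxillary library, where 3.41% and 3.99% of all genes were higher and lower. The mandibular class left out the cluster led by Csmd1 and Plppr1 (628 cells, Nog at 31.2 CPM), which fell below the naming threshold. A maxillary cluster led by Plppr1 and Omd (1068 cells, Nog at 20.6 CPM) was counted as papilla-like. The part of this threshold in the jaw ratios of the papilla was not tested. The Sostdc1 ratio turned without the shared barcodes, from -1.34 to 0.62 (0.25 to 0.97) on the log2 scale over the 36 cells left.

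The share of cells with at least 1 UMI weights each cell alike. With each cell thinned to 1000 UMIs, Bambi was found in 0.952%, 8.0%, 20.1% and 28.3% of epithelium-like cells, against 0.445%, 0.314%, 0.540% and 1.11% of the immune-like and erythroid-like cells that gave the background. The counting intervals of the share and of that background overlapped in the E15.5 maxillary epithelium. That background pools immune-like cells (19.6 CPM of Bambi in that library) with erythroid-like cells (0.676 CPM). The overlap therefore does not place the epithelium at the level of free RNA. Without thinning the shares were 14.0%, 50%, 58.7% and 83.9%, against 4.20%, 2.30%, 1.55% and 6.40%. For Sostdc1 the thinned shares in the mesenchyme were 18.4%, 7.73%, 10.2% and 8.82%. Bmper was found in 5.21%, 7.22%, 2.599% and 4.03% of mesenchyme-like cells, and its thinned share in epithelium-like cells had a counting interval that overlapped that of the background in every library. Without thinning it was 2.70% in the E15.5 maxillary epithelium, against a background of 0.636%. Of the 72 shares (9 genes, 2 compartments, 4 libraries), 54 lay above the background beyond their counting intervals with thinning and 65 without.

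The other pathway genes were taken from lists of ligands, extracellular regulators, receptors, transducers and targets, 59 genes in all. Between the compartments more of them were lower than higher in the epithelium, as was the case over all genes. Of the 53, 51, 53 and 54 genes compared, 21, 20, 20 and 21 were at least 2-fold lower in the epithelium, against 21.2%, 17.3%, 23.4% and 22.6% of all genes, and 7, 8, 5 and 5 were higher, against 12.2%, 14.3%, 13.1% and 12.8%. The extracellular regulators Fstl1 and Nbl1, which bind BMPs or activins, stood at 75.8 and 6.60 CPM in the P1 maxillary epithelium against 732 and 221 CPM in the mesenchyme. The ligand gene Bmp2 was at 4.28 and 3.48 CPM in the P1 epithelium and at 182 and 111 CPM in the mesenchyme of the maxillary and mandibular jaw. Bmp8a, another ligand gene, went the other way, with 66.6 and 86.7 CPM in the epithelium and 8.62 and 18 CPM in the mesenchyme. Without the shared barcodes the P1 maxillary values were 7.13 and 35.3 CPM for Bmp2 in epithelium and mesenchyme, and 2.14 and 2.0 CPM for Bmp8a. Msx1, a homeobox target, had log2 ratios of epithelium to mesenchyme between -5.38 and -4.99 in the 4 libraries, and of -2.33 in the P1 maxillary library without the shared barcodes.

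Between the stages, targets made up 7 of the 14 pathway genes that were at least 2-fold higher in the mesenchyme of either jaw. There 7 of 9 targets were at least 2-fold higher at P1 in each jaw, against 10.2% (maxillary) and 12.3% (mandibular) of all genes. The medians of the targets were 1.69 and 1.74 on the log2 scale, against medians of 0.01 and 0.03 over all genes. Msx2 stood at 1.93 and 2.67 CPM at E15.5 and at 139 and 103 CPM at P1 in the maxillary and mandibular jaw. Dlx3, a homeobox gene of mineralising tissues, stood at 3.77 and 3.62 CPM and then at 98.2 and 73.0 CPM, and Hey1, a gene of the hairy-related repressors, at 12.2 and 8.34 CPM and then at 54.1 and 55.4 CPM. Without the shared barcodes the P1 maxillary mesenchyme stood at 4.09, 3.17 and 12.1 CPM for Msx2, Dlx3 and Hey1, and 1 of 9 targets was at least 2-fold higher there, where 4.05% of all genes were. In the epithelium 7 of 9 targets were higher in the maxillary (5 of 8 without the shared barcodes) and 2 of 9 in the mandibular jaw, against 12.8% (11.6% without the shared barcodes) and 11.2% of all genes. Of the 8 receptors, none was at least 2-fold higher at P1 in either compartment or jaw, and 3 and 2 were at least 2-fold lower in the epithelium of the maxillary and mandibular jaw, against 10.8% and 11.6% of all genes. Bmpr2, the type II receptor of BMPs, stood at 118, 128, 145 and 161 CPM in the epithelium. Of the 9 transducers, 1 was higher in each of these comparisons, near the share of all genes, which was between 10.2% and 12.8%. Among the regulators Fst, which encodes follistatin, stood in the epithelium at 253 and 91.7 CPM at E15.5 and at 25.5 and 27.6 CPM at P1, with 94.9 CPM in the P1 maxillary library without the shared barcodes. The E15.5 and P1 libraries of a jaw enter every one of these stage ratios, so the lists do not give separate evidence.

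Across the 54 classes, the level profiles of the feedback genes were more like each other than like those of the antagonists. Pearson's r of log2(CPM + 1) was 0.83 for Bambi and Smad6, 0.81 for Smad6 and Smad7, 0.80 for Smad7 and Id1, and 0.67 for Bambi and Id1. Among the antagonists r was 0.72 for Chrdl1 and Grem1, 0.71 for Bmper and Grem1 and 0.70 for Bmper and Chrdl1. Sostdc1 and Nog stood apart from these, with r of 0.53 to each other and between 0.02 and 0.33 to the other 3 antagonists. These values are descriptions over classes that share 4 libraries and their depth. Of 16183 genes compared, the profiles most like each member were Epha7 (0.83), Dab1 and Megf6 for Sostdc1, Gm10115 (0.75), Pak3 and BC067074 for Nog, and Podn (0.85), Cys1 and Pou3f3 for Grem1. They were Itgbl1 (0.77), Fgf7 and Arsi for Chrdl1, and B3gnt9 (0.87), Igsf10 and Col6a3 for Bmper. For the feedback genes they were Gm4258 (0.88), Slc39a14 and Gm26936 for Bambi, Slc39a14 (0.87), Ptch1 and Nprl3 for Smad6, Atxn1 (0.90), Eml4 and Pik3r1 for Smad7, and Ptprk (0.92), Myo6 and Nprl3 for Id1. Slc39a14, a zinc and manganese transporter gene, was named for both Bambi and Smad6, and Nprl3 for both Smad6 and Id1.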

How the data were processed

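The authors deposited raw UMI counts per gene and barcode, made with Cell Ranger 7.0.1 on mm10 (submitters' processing notes) from Chromium 3' v3.1 libraries of TrypLE-dissociated molars; whether intronic reads were counted is not given in the sources used here. Barcodes with at least 1000 UMIs were used (44144), and P1 mandibular barcodes also present in the P1 maxillary matrix were dropped. Cells over the median plus 3 MADs of mitochondrial share were removed, as were the cells ranked highest for doublets by Scrublet (0.8% per 1000 barcodes), which left 36372 cells. Within each library 2000 variable genes, 40 principal components, 20 neighbours and Leiden resolution 1.0 (scanpy 1.11.5, python 3.11.15) gave 33, 29, 36 and 32 clusters; 68 BMP pathway genes were left out. Clusters were named from 21 marker lists, with naming thresholds set after the clusters were seen, and 242, 250, 230 and 615 cells stayed unnamed.

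UMIs were summed per class. Ratios needed 20 UMIs over both sides and were called from 2-fold; a count of 0 was set to 3 UMIs, which gives a bound. Intervals (95%) were exact Poisson for levels, exact conditional binomial for ratios and Clopper-Pearson for shares (scipy 1.17.1), and cover counting error only. With 1 library a group, no test was run. The procedure was tested on simulated data. Free RNA was read from pooled immune-like and erythroid-like cells. Where the immune-like cells held far more of a gene than the erythroid-like ones, as for Smad7 and Bambi, the pooled value cannot be read as free RNA alone. The gene profiles most like each member were ranked by Pearson's r over classes among genes with at least 300 UMIs. Named pathway genes were the 3 of each list with the largest change in both libraries and at least 50 CPM. The 9 genes and all lists were chosen with earlier results of these data known. Values of the P1 maxillary library from shared barcodes alone, and of the pathway lists without them, were added after seeing the data. There were 0 columns of samples outside the series.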

Additional observations from a re-analysis of the deposited data

Results flagged for a closer look

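The ratio of maxillary to mandibular Bmper in papilla-like cells pointed one way at E15.5 and the other way at P1. The log2 ratio was 2.56 at E15.5 (65.1 against 11.0 CPM, 246 and 10 UMIs) and -1.20 at P1 (3.59 against 8.28 CPM, 141 and 184 UMIs). The difference between the stages was not tested, with 1 library per stage and jaw.

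The ratio of Bambi in epithelium-like to mesenchyme-like cells at E15.5 differed in sign between the jaws. The log2 ratio was -1.05 in the maxillary library (11.98 against 24.8 CPM) and 1.63 in the mandibular library (90.8 against 29.4 CPM), where it rests on 100 epithelium-like cells. The difference between the jaws was not tested.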

How the results depend on the processing

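Each of 9 alternatives was applied singly, and of 903 recomputed ratios of the whole epithelium and mesenchyme, 690 stayed within the counting interval, 210 moved by more and 3 that had been past 2-fold changed sign. Counting ratios of any size, 50 changed sign, 13 of them without the shared P1 barcodes. The moves were uneven: thinning to 1000 UMIs moved 63 ratios and kept 25, a mean over cells moved 54 and kept 48, and leaving out the mitochondrial and doublet filters moved 36, whereas a clustering resolution of 0.5 and a minimum of 50 UMIs moved 0. The 3 past 2-fold changed sign when the shared P1 barcodes were left out of both libraries: Nog at P1 against E15.5 in maxillary mesenchyme (-0.16), Nog in epithelium against mesenchyme of the P1 maxillary library (0.70) and Smad7 at P1 against E15.5 in maxillary mesenchyme (-0.036). That setting also gave 9 in place of 15 member ratios of 33 at least 2-fold higher at P1, 2 in place of 5 at least 2-fold lower, and 7 in place of 3 at least 2-fold lower in the maxillary jaw. Of all genes, 13% and 11.9% were then lower in the maxillary jaw in P1 epithelium and mesenchyme, in place of 3.76% and 4.76%. In these 2 maxillary compartments 11.6% and 4.05% were higher at P1, in place of 12.8% and 10.2%. Lower at P1 were 7% and 4.06%, in place of 10.8% and 6.94%. Thinning to 1000 UMIs gave 3 ratios lower at P1 (of 29) and 13 in place of 25 other pathway genes higher in epithelium (of 177). Without the mitochondrial and doublet filters, 4 in place of 2 member ratios were at least 2-fold higher in the maxillary jaw (of 34). Shares of all genes are not given here for thinning or without those filters. Whether these counts moved with all genes therefore cannot be read from them. The counts of 4 and 14 member ratios higher and lower in epithelium stayed within 1.5 times under the alternatives run, but not with the same genes: without the shared barcodes Nog was no longer lower, Sostdc1 no longer higher, and Bambi was higher in the P1 maxillary library.

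With 1 library per group there was no replicate to leave out, and the spread between animals is unknown. No paired analysis was run, since each group holds 1 library, so that groups share 1 replicate number, and the jaws were not taken as replicates of a stage. The P1 jaws cannot be told apart from the shared barcodes, and Nog and Grem1 are limited by depth, with 2322 and 1237 UMIs in all.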
